A study of Mus musculus with 13 samples.

Results

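The genes described here are 9 interferon response factors and antiviral genes of the mouse: the transcription factors Stat2, Irf1, Irf7 and Irf9 and the antiviral genes Isg15, Ifit1, Ifit3, Ifih1 and Oasl2. They were chosen by name, as the rows with these symbols in both count tables, and all 9 were found among 24421 genes. Each had at least 1 read in at least 1 library, as had 20044 genes in all. The RNA came from mouse embryonic stem (ES) cells of the female line F1-2.1, of the cross CAST/Ei x 129/Sv/Jae. All 4 libraries came from the same clone, A2, which carries a Tet-on CTCF S224E transgene. CTCF is a DNA-binding protein that organizes chromatin, and S224E is a form of it in which a glutamate replaces a serine, to mimic that serine's phosphorylation. In the +dox group (2 libraries) the cells were grown with 1 μg/mL doxycycline (dox), the drug that switches the transgene on, for 6 days, and in the −dox group (2 libraries) the same cells were grown for 6 days without it. The study asked which genes change their RNA level when CTCF S224E is made.

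Several features limit these groups as a model. The cells were a single clone, they grew on γ-irradiated mouse embryonic fibroblast feeders in medium with serum and LIF, and the vector makes EGFP beside CTCF. RNA libraries of cells given dox without this transgene, or with a wild-type transgene, were not analysed here, so dox and CTCF S224E cannot be told apart. No culture was given interferon or infected, so all levels given here are those of unstimulated cells. In bulk RNA, fewer cells of a type and less RNA per cell cannot be told apart. The replicates are described as biological, and each p-value from all 4 libraries rests on 2 libraries a group.

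Interferons are secreted proteins that warn cells of infection. Type I interferons bind the receptor of Ifnar1 and Ifnar2, whose kinases Jak1 and Tyk2 phosphorylate Stat2, and Stat2 and Irf9 enter a complex (ISGF3) that binds the interferon-stimulated response element (ISRE). Interferon gamma acts through Ifngr1, Ifngr2, Jak1 and Jak2, and its signal reaches another element, the gamma-activated site (GAS). Irf1 is an interferon-induced activator of antigen-processing genes, and Irf7 is the main activator of interferon alpha genes once a virus has been sensed. Isg15 is a ubiquitin-like protein, Ifit1 binds foreign RNA, and Ifit3 is of the same family. Ifih1 (MDA5) senses long double-stranded RNA in the cytoplasm, and Oasl2 is a relative of the 2′-5′ oligoadenylate synthetases. Pluripotent cells are known for a weak interferon response and little or no expression of many of these genes.

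Promoter windows of the genes were searched for the letters of these elements. The windows were RefSeq's, from 250 bases before to 50 bases after each transcription start in the table built on GRCm38.p6. Those printed here were placed by an exact match on NCBIM37 (mm9), the build of the counts. The letters are those of the reference genome, and the alleles of this cross were not examined. The ISRE was searched as GAAANNGAAA and the GAS as TTCNNNGAA, on both strands. At least 1 ISRE match lay in 5 of the 9 genes (Isg15, Ifit1, Ifit3, Stat2 and Ifih1), against 3.44% of all 32851 windows (1079 of 27025 genes). The GAS letters lay in a window of Irf1 alone among the 9. That is 1 of the 11 windows of these genes (9.09%), near the 8.30% of all windows (2582 of 27025 genes). No window of Oasl2, Irf7 or Irf9 held either string of letters. Among 106 windows of other interferon pathway genes, 36 held the ISRE letters and 22 the GAS letters.

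The following stretches carry the matches upstream of the start, in capitals, with 15 bases on each side. They are read 5′ to 3′ on the strand of the gene, with mm9 coordinates. They are shown because the members fall into those with an ISRE match, the single one with a GAS match and those with neither match. Psmb8, Gbp2 and Gbp2b are added because they are the pathway genes that fell with dox by edgeR's test.
Isg15, ISRE, chr4:155574969-155575020 (minus strand): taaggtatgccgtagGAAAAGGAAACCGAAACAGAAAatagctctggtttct
Ifit1, ISRE, chr19:34715260-34715318 (plus strand): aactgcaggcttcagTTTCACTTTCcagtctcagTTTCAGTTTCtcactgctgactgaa
Ifit3, ISRE, chr19:34657848-34657921 (plus strand): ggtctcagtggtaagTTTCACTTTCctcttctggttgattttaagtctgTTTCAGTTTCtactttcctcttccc
Stat2, ISRE, chr10:127707317-127707356 (plus strand): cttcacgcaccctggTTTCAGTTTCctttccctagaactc
Irf1, GAS, chr11:53583411-53583449 (plus strand): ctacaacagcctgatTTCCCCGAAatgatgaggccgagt
Psmb8, GAS, chr17:34335028-34335066 (plus strand): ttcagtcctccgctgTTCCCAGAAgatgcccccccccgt
Gbp2, ISRE, chr3:142283553-142283592 (plus strand): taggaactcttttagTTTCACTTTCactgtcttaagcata
Gbp2b, ISRE, chr3:142257659-142257698 (plus strand): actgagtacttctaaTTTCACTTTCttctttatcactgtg
In Isg15, 3 overlapping matches, at −78, −72 and −66 from the start, run together as a single block. Ifit1 has matches at −104 and −85 and Ifit3 at −156 and −122, each on the opposite strand, so that they appear as repeats of TTTC. The match of Stat2 lies farther out, at −222 from a RefSeq start that is itself 78 bases upstream of the gene start in the counts. That of Ifih1 lies at 32 bases past the start and is not printed. A match describes the letters and is not a measured binding site. The lack of a match does not show that a gene lacks the element, because variant letters and sites outside the window were not searched.

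**Figure D1:**
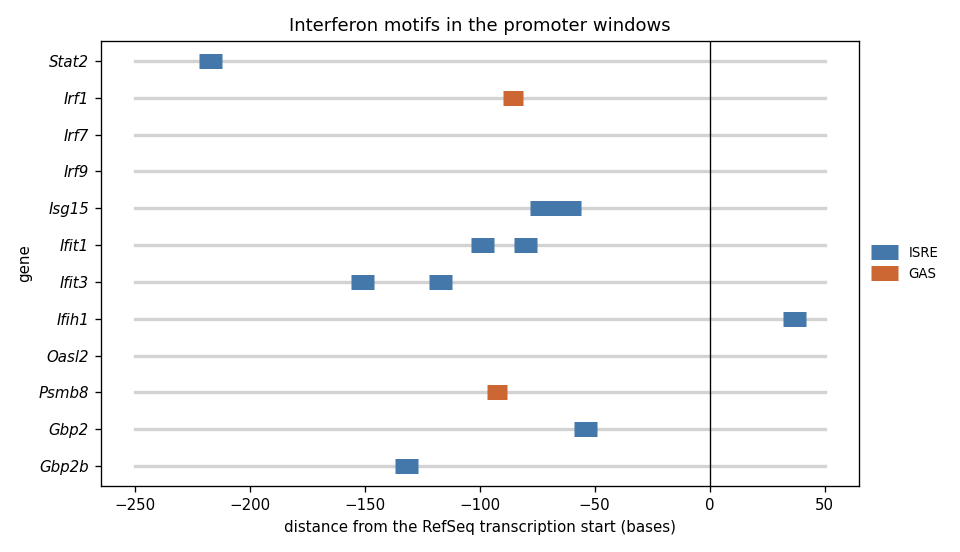
Matches to the ISRE and GAS letters in the promoter windows of the 9 genes and of Psmb8, Gbp2 and Gbp2b, by distance from the RefSeq transcription start in bases (grey lines, the windows). Isg15, Ifit1 and Ifit3 hold 3, 2 and 2 ISRE matches, Irf1 and Psmb8 hold a GAS match, and Irf7, Irf9 and Oasl2 hold none.

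Counted reads per library ran from 22899107 to 30206085. Ctcf, the gene the transgene copies, had 7363 and 7519 reads with dox and 9017 and 7636 without, a log2 fold change of 0.13 (edgeR adjusted p = 0.475), and counts do not show which reads came from the transgene. By edgeR's quasi-likelihood test at an adjusted p under 0.01, 104 of 20044 genes were lower with dox (0.519%) and 16 were higher (0.0798%). DESeq2 called 257 lower (1.28%) and 118 higher. The cell type markers showed ES cells in every library. The 11 pluripotency markers summed to 6790 and 7487 CPM with dox and to 6031 and 6358 CPM without. CPM are reads per 1000000 counted reads, scaled by edgeR's TMM factors. The +dox library of replicate 1 stood apart in its fibroblast sum. Its 22 fibroblast markers summed to 1476 CPM, against 626 CPM in the other +dox library and 539 to 559 CPM without dox. In the fit of all 4 libraries, 21 of the 22 had a log2 fold change above 0. For 16 of the 22, both +dox libraries lay above both −dox libraries, beside 4665 of 20044 genes, so higher levels were not confined to replicate 1. The 4 chromosome Y genes of this female line's cultures summed to 10.3 CPM in +dox replicate 1 and to 2.46 to 3.28 CPM in the other 3 libraries. The 9 primitive streak markers summed to 35.2 and 36.5 CPM with dox and to 157 and 182 CPM without it. Leucocyte markers were found only in part: Ptprc and Tyrobp had 0 or 1 read in each library. The list summed to 92.8 and 112 CPM with dox and to 78.3 and 67.7 CPM without, mostly from Laptm5 and Cd68. The fold changes of the members and the count of members called are therefore also given without +dox replicate 1, and the part of fibroblast or streak cells in it was not tested.

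**Figure D2:**
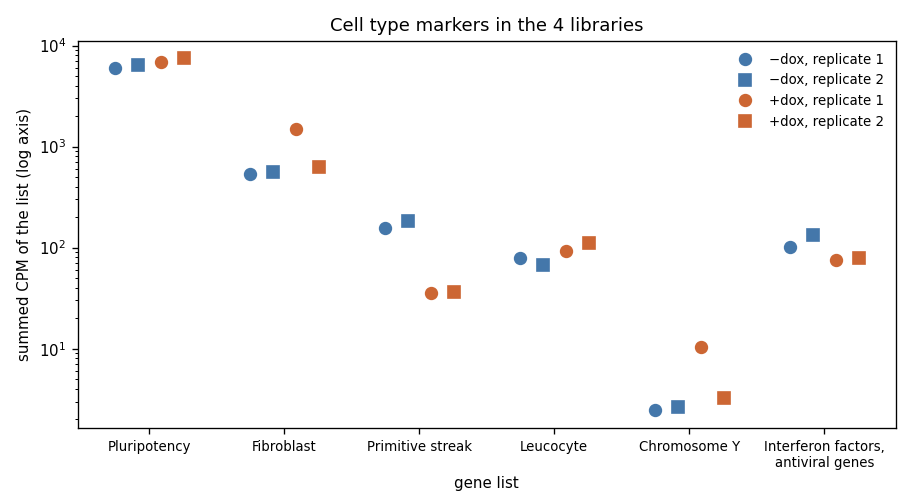
Summed CPM of each marker list in the 4 libraries (log axis; circles, replicate 1; squares, replicate 2). The fibroblast sum is highest in +dox replicate 1 (1476 CPM), the streak sum is lower in both +dox libraries (35.2 and 36.5 CPM), and the sum over the 9 interferon genes is 76.1 and 78.8 CPM with dox and 101 and 132 CPM without.

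Most of the interferon genes were close to silent. Per length of transcript, Irf1 stood far above the rest at a mean of 29.9 RPKM (CPM divided by the exon length in kilobases that the tables give), and its range over the 4 libraries, 23.2 to 41.4 RPKM, did not overlap that of any other member. Stat2 at 4.43 RPKM and Irf9 at 4.15 RPKM came next, and their ranges overlapped (2.99 to 6.39 and 3.88 to 4.86 RPKM). Both lay above Oasl2 in every library. Oasl2 (0.535 RPKM), Isg15 (0.435), Irf7 (0.193), Ifit3 (0.148), Ifit1 (0.113) and Ifih1 (0.0868) followed, and each of these overlapped its neighbour in the order. On the CPM scale, 4 members averaged at least 1 CPM (Irf1, Stat2, Irf9 and Oasl2), with 9726 reads together. The other 5 had 177 reads together and 0 to 22 reads a gene and library. Isg15, Ifit1, Ifit3 and Ifih1, which have ISRE matches, were among the genes with the fewest reads, while Stat2, which also has a match, had 1967. Irf7, with neither match in its window, had 34 reads, as had Isg15.

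**Figure D3:**
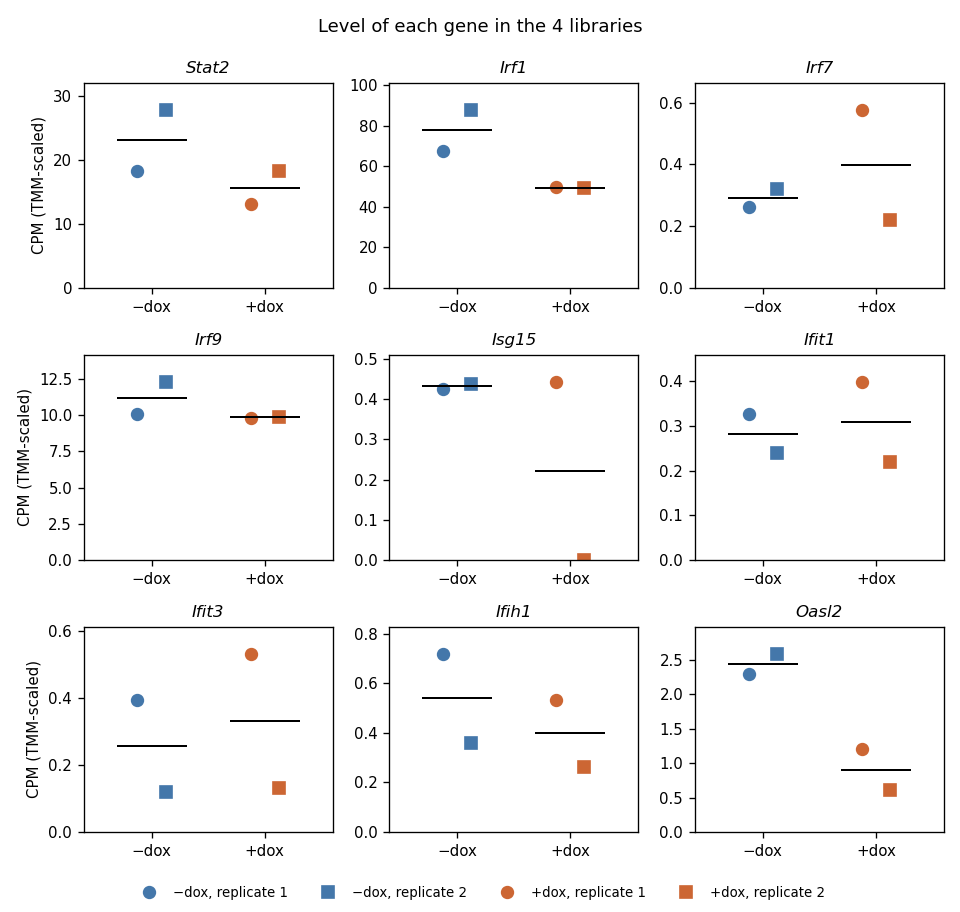
Level of each of the 9 genes in CPM, scaled by TMM (edgeR's trimmed mean of M values), in −dox (blue) and +dox (orange) libraries, with circles for replicate 1, squares for replicate 2 and a line at the group mean. The scales differ between panels: Irf1 lies between 49.3 and 88 CPM, while Irf7, Isg15, Ifit1, Ifit3 and Ifih1 lie below 1 CPM.

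No member passed edgeR's test at an adjusted p under 0.01: 0 of 9 were called lower, beside the 0.519% of all genes given above, and 0 were called higher. At an unadjusted p under 0.05 there were 3, Irf1, Oasl2 and Stat2, and all 3 were lower with dox, beside 9.31% of all genes lower and 8.48% higher at that p. DESeq2 called 1 lower, Irf1, beside 1.28% of all genes. All 4 members that averaged at least 1 CPM were lower in both +dox libraries than in both −dox libraries. The same held for 27.7% of all 13911 genes at that level, and for 4 of the 9 members beside 23.7% of all genes tested. The median log2 fold change was −0.46 over the 9 and −0.61 over these 4, against 0.01 over all genes tested and −0.00 over those at that level. With 4 genes of unequal depth these medians describe the genes and were not tested. Without +dox replicate 1, edgeR called 2 members lower (Irf1 and Oasl2), beside 3.56% of all genes (696 of 19555). Without +dox replicate 2 it also called 2 (Irf1 and Stat2), beside 1.81% of all genes (358 of 19808). In these fits a single +dox library is assumed to vary like the −dox group, and calls rose among all genes, so an adjusted p from them is no stronger evidence than that of all 4 libraries. Without either −dox library edgeR called 0 members and 0 genes in all, with 3 members at an unadjusted p under 0.05 when −dox replicate 1 was left out and 1 when −dox replicate 2 was left out.

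Irf1 was the most abundant and the most precisely measured of the 4 transcription factors. This gene (chromosome 11, 53583516 to 53590826, plus strand, mm9) carries the GAS match shown above. It had 1116 reads in +dox replicate 1 and 1126 in +dox replicate 2, against 2070 and 2208 in the −dox libraries. In CPM these were 49.6 and 49.3 with dox and 67.8 and 88 without. The +dox values were nearly equal, both lay below both −dox values, and the −dox values differed more from each other than the +dox values did. The means were 49.4 ± 0.186 CPM with dox and 77.9 ± 14.3 CPM without (SD, n = 2 each). The log2 fold change was −0.65 (SE 0.13), with −0.45 within replicate 1 and −0.83 within replicate 2. edgeR gave an adjusted p of 0.0249, above the threshold of 0.01, and DESeq2 gave 0.00201, below it. The log2 fold change was −0.66 without +dox replicate 1 and −0.65 without +dox replicate 2, with adjusted p of 4.56e-04 and 4.65e-04 by edgeR where the spread of the single +dox library is assumed. The annotation of NCBIM37 places 135 of the 3976 exon bases of Irf1 (3.40%) on the opposite strand to exons of Gm17334, and whether the counting used the strand is not given in the sources used here.

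Stat2, the subunit of ISGF3 that activates transcription, lies on chromosome 10 (127707632 to 127729905, plus strand). It had 294 and 416 reads with dox and 557 and 700 without. In CPM it stood at 13.1 and 18.2 with dox and at 18.2 and 27.9 without. The groups touch: the higher +dox value and the lower −dox value were 18.217 and 18.236 CPM. The log2 fold change was −0.56 (SE 0.22, adjusted p = 0.201 by edgeR and 0.196 by DESeq2), with −0.48 and −0.61 within the replicates. The difference did not pass the test, and leaving out +dox replicate 2 brought it to −0.82, with an adjusted p of 0.00200 by edgeR where the spread of the single +dox library is assumed. Irf9, the DNA-binding subunit of ISGF3 (chromosome 14, 56222822 to 56228867, plus strand), had 221 and 225 reads with dox and 308 and 309 without, or 9.82, 9.85, 10.1 and 12.3 CPM in the same order. The groups did not overlap, but −dox replicate 1 lay close to both +dox libraries. The log2 fold change of Irf9 was −0.19 (SE 0.20, edgeR adjusted p = 0.691), and within replicate 1 it was −0.04. Without +dox replicate 1 the log2 fold change was −0.34 for Stat2 and −0.18 for Irf9, with adjusted p of 0.323 and 0.746 by edgeR. A change in Irf9 was not detectable beyond its error.

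Irf7 (chromosome 7, 148449082 to 148452323, minus strand) had 13 and 5 reads with dox and 8 in each −dox library. Its levels of 0.577 and 0.219 CPM with dox enclosed the −dox levels of 0.262 and 0.319 CPM. The log2 fold change was 0.45 with an SE of 0.69, and its sign differed between replicate 1 (0.94) and replicate 2 (−0.42). The tables count Irf7 on transcripts of 1751 and 1847 nt in replicates 1 and 2, so that its levels in the tables are not counted on the same transcript, and the values within each replicate are those that share it.

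Among the antiviral genes, Oasl2 had the largest difference in size. It lies on chromosome 5 (115346943 to 115362254, plus strand), and its window held no ISRE or GAS letters. Oasl2 had 27 and 14 reads with dox and 70 and 65 without. In CPM the levels were 1.2 and 0.613 with dox and 2.29 and 2.59 without, so that both +dox libraries lay below both −dox libraries. The means were 0.906 ± 0.415 CPM with dox and 2.44 ± 0.211 CPM without (SD, n = 2 each). The log2 fold change was −1.42 (SE 0.37), with −0.89 within replicate 1 and −1.95 within replicate 2. It did not pass the test (adjusted p = 0.0653 by edgeR and 0.150 by DESeq2). Without +dox replicate 1, the library with the high fibroblast sum, it was −1.98, with 14 reads in the single +dox library, whose spread is assumed (edgeR adjusted p = 0.00103). The value within replicate 1 was the smaller one for Irf1, Stat2 and Irf9 as well. In these genes the level was lower in −dox replicate 1 than in −dox replicate 2. Their +dox levels in replicates 1 and 2 were nearly equal for Irf1 (49.6 and 49.3 CPM) and Irf9 (9.82 and 9.85 CPM). For Stat2 the +dox level was lower in replicate 1 (13.1 and 18.2 CPM). Without +dox replicate 1 the log2 fold change was −0.66 for Irf1, −0.18 for Irf9 and −0.34 for Stat2.

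No difference passed the test in the 4 antiviral genes with the least RNA. Isg15 (chromosome 4, 155573533 to 155574927, minus strand) had 10 reads in +dox replicate 1, 0 in +dox replicate 2, and 13 and 11 in the −dox libraries. The 0 among 23136603 reads allows up to 0.130 CPM (3 reads, for counting error only), while the other 3 libraries were close to each other at 0.444, 0.426 and 0.438 CPM. A single library thus set the log2 fold change of −0.95 (SE 0.91, edgeR adjusted p = 0.661), and without it the value was 0.041. Ifit1 (chromosome 19, 34715379 to 34724499, plus strand) had 9 and 5 reads with dox and 10 and 6 without, and its neighbour Ifit3 (34658019 to 34663472, plus strand) had 12 and 3 with dox and 12 and 3 without. In both genes replicate 1 was higher than replicate 2 in either condition, and the conditions overlapped. Their log2 fold changes were 0.11 (SE 0.70) and 0.32 (SE 0.83). Ifit3 has a near-identical copy, Ifit3b, which had 2 reads in all, and reads shared by the copies may not have been counted. Ifih1 (chromosome 2, 62433850 to 62484312, minus strand) had 12 and 6 reads with dox and 22 and 9 without, or 0.533, 0.263, 0.720 and 0.359 CPM, and these groups overlapped too. Its log2 fold change was −0.46 (SE 0.61, edgeR adjusted p = 0.735), and its transcript differed between the tables (5355 and 5501 nt).

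Irf7, Isg15, Ifit1, Ifit3 and Ifih1 had the same order of the +dox libraries, at few reads each. All 5 were higher in +dox replicate 1 than in +dox replicate 2, although Irf7 and Ifih1 were counted on other transcripts in these tables. Their levels summed to 2.49 CPM and 0.832 CPM in these libraries, and to 2.13 and 1.47 CPM in −dox replicates 1 and 2. Between the −dox libraries, 3 of the 5 were higher in replicate 1. The share of all genes that were higher in +dox replicate 1 than in +dox replicate 2 was not counted. The +dox replicate 1 library also held the high fibroblast and chromosome Y sums, and a link to them was not tested. In −dox replicate 1, where the 5 genes summed to 2.13 CPM, these marker sums were 539 and 2.46 CPM. The 4 members that averaged at least 1 CPM summed to 73.6 and 78.0 CPM with dox and to 98.4 and 131 CPM without. Their sum was lower in +dox replicate 1 than in +dox replicate 2. Without +dox replicate 1, the higher +dox library in all 5, their log2 fold changes were all below 0. They ran from −1.05 for Ifih1 to −0.38 for Ifit1 in 4 of the genes, while Isg15 had 0 reads in the remaining +dox library. Without +dox replicate 2 they were 0.99 for Irf7, 0.99 for Ifit3, 0.48 for Ifit1, 0.04 for Isg15 and −0.04 for Ifih1. The values of these genes thus depended on which +dox library was left out. With standard errors of 0.61 to 0.91 on the log2 scale and both +dox libraries in use, a difference as large as that of Irf1 in the 5 scarce genes would not have been detectable at this depth.

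**Figure D4:**
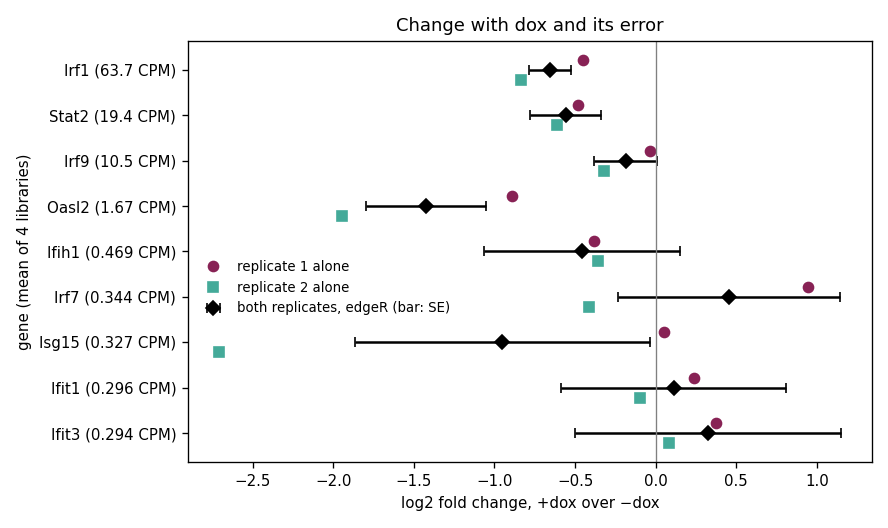
Log2 fold change, +dox over −dox, of each gene, ordered by mean CPM (black diamonds with bars of 1 SE from edgeR; circles and squares, the values within replicates 1 and 2). Irf1 (−0.65), Stat2 (−0.56), Irf9 (−0.19) and Oasl2 (−1.42) lie below 0 in both replicates, while the 5 scarce genes have the longest bars (SE 0.61 to 0.91).

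The other genes of the pathway were taken from 7 lists of 146 genes by role. Of 125 with a read, edgeR called 3 lower and 0 higher with dox, and DESeq2 called 6 lower and 1 higher. The shares of all genes, here and for each list, are 0.519% lower and 0.0798% higher by edgeR. By DESeq2 they are 1.28% lower and 118 of 20044 genes higher. At an unadjusted p under 0.05 edgeR had 31 lower and 7 higher, and the share of all genes at that p, here and for each list, is the 9.31% lower and 8.48% higher given above. Among the 91 list genes that averaged at least 1 CPM, 60 had a negative log2 fold change (65.9%, against 50.2% of all genes at that level), and the median was −0.22. By list, the median was near 0 for receptors and signalling (−0.07), other IRFs (0.02) and sensors (0.03), lower for other antiviral effectors (−0.24) and antigen processing (−0.52), and lowest for the Gbp and Irg GTPases (−1.85). The differences between lists were not tested.

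The ligands were absent or nearly so. Of 21 interferon genes, 18 had 0 reads in all 4 libraries, and Ifna6, Ifnz and Ifnl2 had 9 reads between them. Ifnz, the highest of these, had 1 and 0 reads with dox and 4 and 0 without. The receptors, kinases, STATs and feedback inhibitors were expressed, with 15 of 16 averaging at least 1 CPM, and edgeR and DESeq2 called 0 of them, with 1 at an unadjusted p under 0.05 by edgeR. Stat3, the most abundant and the STAT through which LIF maintains ES cells, was at 239 and 221 CPM with dox and 207 and 197 CPM without, a log2 fold change of 0.18 (SE 0.09, edgeR adjusted p = 0.322).

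Among 8 other IRFs and IRF-binding proteins edgeR called 0, with 2 lower and 1 higher at an unadjusted p under 0.05, and DESeq2 called 1. This was Irf2bp1, a corepressor that binds Irf2 and the most abundant of the list, at 64.6 and 71.5 CPM with dox and 41.0 and 46.5 CPM without. It was higher in both +dox libraries than in both −dox libraries, by a log2 fold change of 0.64 (SE 0.12, adjusted p = 0.0190 by edgeR and 5.48e-04 by DESeq2). It is the single pathway gene that DESeq2 called higher. Among 16 sensors and adaptors edgeR and DESeq2 called 0, with 2 lower and 1 higher at an unadjusted p under 0.05 by edgeR. Trim25, a ubiquitin ligase that activates the sensor RIG-I, was the most abundant, with a mean of 139 CPM and a log2 fold change of 0.07 (edgeR adjusted p = 0.747), which was −0.00 without +dox replicate 1. Zbp1, a sensor of Z-form nucleic acid named after its values were seen, had the lowest value among sensors that averaged at least 1 CPM, −1.46 (SE 0.30, edgeR adjusted p = 0.0254).

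The 45 other antiviral effectors were uneven. edgeR called 0 of them, with 11 lower and 3 higher at an unadjusted p under 0.05, and DESeq2 called 1 lower, Dtx3l. This ubiquitin ligase, which works with Parp9, was at 16.4 and 14.5 CPM with dox and at 23.8 and 26.8 CPM without, a log2 fold change of −0.71 (SE 0.16, adjusted p = 0.0362 by edgeR and 0.00807 by DESeq2). Pml, the organizer of nuclear bodies, was the most abundant effector at a mean of 465 CPM and had the opposite sign, 0.31 (edgeR adjusted p = 0.0991). Ddx60, a helicase named after its values were seen, was at 0.844 and 0.569 CPM with dox and at 2.06 and 3.71 CPM without, and its log2 fold change of −2.02 (SE 0.40, edgeR adjusted p = 0.0224) did not pass the threshold.

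The 3 pathway genes that edgeR called lay in the lists of antigen processing and of the GTPases. Psmb8, a subunit of the immunoproteasome, was at 0.577 and 0.657 CPM with dox and at 4.68 and 4.34 CPM without. The replicates lay close together and the groups far apart. Psmb8 fell by 2.86 on the log2 scale (SE 0.32, edgeR adjusted p = 7.37e-04). It was the single gene of 16 in its list that edgeR called, with 7 lower and 1 higher at an unadjusted p under 0.05. DESeq2 also called H2-K1, a heavy chain of MHC class I, and Erap1, which trims peptides for it. H2-K1 was at 24.4 and 24.5 CPM with dox and at 38.3 and 35.7 CPM without (log2 fold change −0.60, adjusted p = 0.0354 by edgeR and 0.00721 by DESeq2), and its reads may be shared with other class I genes. Erap1 was at 7.33 and 4.73 CPM with dox and at 12 and 13.7 CPM without (log2 fold change −1.09, adjusted p = 0.0314 by edgeR and 0.00694 by DESeq2). Psme1, a proteasome activator and the most abundant of the list, had a log2 fold change of −0.45 (edgeR adjusted p = 0.0850).

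Several proteins of the Gbp and Irg GTPase families attack the membranes of vacuoles that hold pathogens. Among 24 genes of these families (21 with a read), edgeR and DESeq2 called the same 2 lower, Gbp2b and Gbp2. Gbp2b was at 0.933 and 0.438 CPM with dox and at 4.94 and 7.29 CPM without, and it fell by 3.15 on the log2 scale (SE 0.37, edgeR adjusted p = 0.00127). Gbp2 was at 3.42 and 2.01 CPM with dox and at 10.0 and 15.9 CPM without, and it fell by 2.25 (SE 0.30, edgeR adjusted p = 0.00234). Both have an ISRE match upstream of the start, as do Isg15, Ifit1, Ifit3 and Stat2, which were not called. Irgq, the most abundant of the list at a mean of 26.7 CPM, had a log2 fold change of 0.34 (edgeR adjusted p = 0.259). Of the 9 genes of this list that averaged at least 1 CPM, 8 were lower without overlap. Of the 4 interferon factors and antiviral genes at that level, 4 were, beside 27.7% of all 13911 genes at that level.

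These 3 calls were lost with edgeR's own filter on low counts, where the adjusted p was 0.0130 for Psmb8, 0.0207 for Gbp2b and 0.0318 for Gbp2, while the log2 fold changes stayed at −2.86, −3.14 and −2.25. Without −dox replicate 1 or −dox replicate 2 edgeR called no gene in the whole table, so the loss of the calls there says nothing of these genes. The log2 fold changes were then −2.80 and −2.91 for Psmb8, −3.40 and −2.84 for Gbp2b and −2.55 and −1.88 for Gbp2. Without +dox replicate 1 all 3 remained called by edgeR, at log2 fold changes of −2.77 for Psmb8, −3.79 for Gbp2b and −2.68 for Gbp2.

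**Figure D5:**
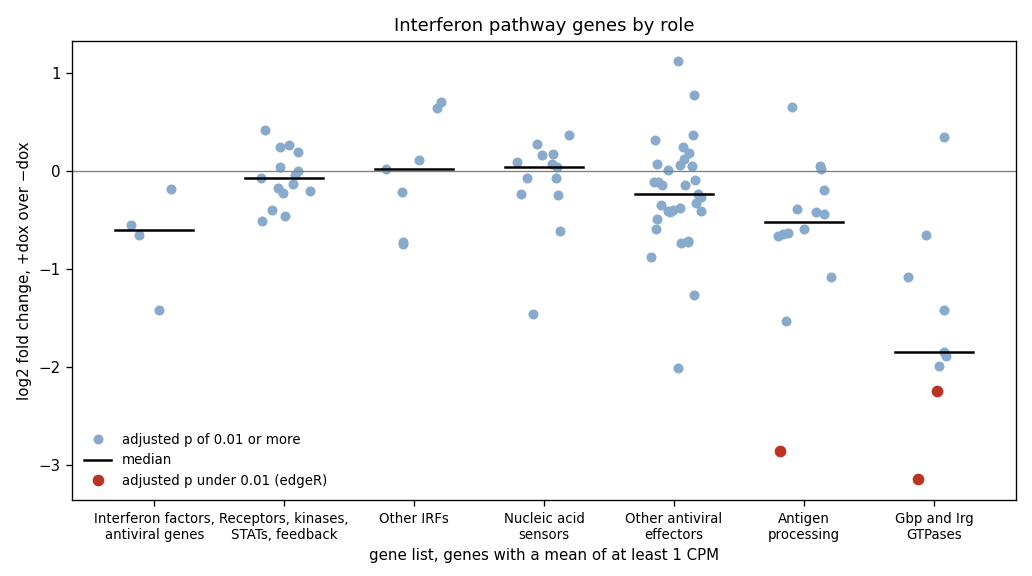
Log2 fold change, +dox over −dox, of each gene averaging at least 1 CPM, by list (points, genes; lines, list medians; red, adjusted p under 0.01 by edgeR). Medians run from 0.03 for sensors to −1.85 for the Gbp and Irg GTPases, and the red points are Psmb8, Gbp2b and Gbp2.

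The 4 members that averaged at least 1 CPM were joined in a profile, the mean of their log2 CPM centred over the libraries. It was −0.30 and −0.40 with dox and 0.17 and 0.53 without. Among 11354 genes that averaged at least 5 CPM, the 5 closest to it by Euclidean distance over the 4 libraries were Zfp518a (0.0623), Smc1b (0.0626), Myo5b (0.0832), Ptpn6 (0.0835) and Fam117b (0.0842). They share with the members the lower values in both +dox libraries and the highest value in −dox replicate 2. Zfp518a, the nearest, was at 45.1 and 42.7 CPM with dox and at 62.1 and 76.7 CPM without. Smc1b, the meiotic cohesin subunit, was at 16 and 15.0 CPM with dox and at 22.9 and 30.0 CPM without. The log2 fold changes of the 5 ran from −0.77 to −0.63, and none passed the threshold of 0.01 in edgeR's test, while DESeq2 put Zfp518a, Smc1b, Ptpn6 and Fam117b past it. With 4 libraries, this likeness is a description and says nothing of shared function.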

How the data were processed

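Polyadenylated RNA of 4 cultures was sequenced as paired 50-nt reads. The authors used cutadapt for trimming, TopHat2 for alignment to mm9 and, after removal of PCR duplicates, HOMER to count unique exonic reads per gene. The deposited values are raw counts per gene, not normalized, in a table for each replicate. Tool versions and the use of strand are not given in the sources used here.

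Gene symbols joined the tables (547 genes have different transcripts in them), and samples were grouped by their labels. All genes with a count in any library entered edgeR 4.0.16 (R 4.3.3), with TMM scaling and its quasi-likelihood test, two-sided, without a replicate block and with deviances not adjusted for small counts, at a Benjamini-Hochberg adjusted p under 0.01. DESeq2 1.42.0, which the authors used, was an alternative. CPM are TMM-scaled, log2 fold changes within a replicate use a prior count of 2, and standard errors come from the test statistic. The fits were tested on simulated data. Counting limits use 3 reads and cover counting error only. The members and gene lists were chosen with earlier results of these data known. Named are the members, list genes with an adjusted p under 0.01 by edgeR or DESeq2, the most abundant gene of each list and the 5 genes nearest in profile. Other genes are background, or are said to have been picked with their values known. Alternatives were DESeq2, edgeR's likelihood ratio test, adjusted deviances, a replicate block, other scalings, filters and threshold, genes whose transcript did not differ between tables, a prior count of 0.5, and leaving out each library. The ChIP-seq and Hi-C samples were not used here.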

Additional observations from a re-analysis of the deposited data

How the results depend on the processing

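At the threshold of 0.01, 104 genes were lower and 16 higher with dox, of these 0 and 0 members, and 3 and 0 pathway list genes. In the same order the counts were 257, 118, 1, 0, 6 and 1 with DESeq2, and 327, 130, 1, 0, 11 and 1 with edgeR's likelihood ratio test. At a threshold of 0.05 they were 387, 186, 1, 0, 12 and 1. With deviances adjusted for small counts edgeR called 0 genes of any kind, with 1745 lower and 1509 higher at an unadjusted p under 0.05. Filters left 11 genes lower with filterByExpr and 12 with a mean of at least 1 CPM, 0 higher and 0 pathway genes, with 29 and 27 pathway genes lower at an unadjusted p under 0.05. Total counts gave 5 genes higher (from 16), and leaving out genes whose transcripts differ between the tables gave 25. DESeq2's size factors changed no count by over 1.5 times. Leaving out each library gave 0 to 696 genes lower and 0 to 519 higher, 0 to 2 members lower, and 0 to 19 pathway genes lower and 0 to 3 higher. The lowest counts came without −dox replicate 1 or 2, where the lone library is assumed to vary like the other group, as in all these fits, and edgeR still had 976 and 867 genes lower at an unadjusted p under 0.05. The causes of these shifts were not tested.

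Replicate numbers appear in the labels of both groups, but nothing says that they mark a shared culture, and 2 pairs are too few to decide it. Deviations of same-numbered libraries correlated at 0.196 across genes. Under a replicate block the counts were 470 genes lower and 316 higher, 2 members lower (Irf1 and Oasl2, adjusted p = 0.00120 and 0.00966), and 14 pathway genes lower and 2 higher.

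Among the members, Irf1 kept its sign in all 13 alternatives (−0.83 to −0.46), as did Stat2 (−0.83 to −0.22), Irf9 (−0.32 to −0.04) and Oasl2 (−1.98 to −1.02), with adjusted p up to 0.670 for Irf1 and Oasl2. Signs turned only in scarce genes and in Trim25, each time on leaving out a library and never past the threshold. Over the 4 fits that leave out a library, Irf7 ran from −0.39 to 0.99, Isg15 from −6.51 (a fitted value against a single +dox library at 0 reads, which depends on the prior count) to 0.041, Ifit1 from −0.38 to 0.48, Ifit3 from −0.99 to 1.43, Ifih1 from −1.05 to 0.15 and Trim25 from −0.0049 to 0.13. Depth limits the 5 members under 1 CPM, with 177 reads in all.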
